A study of Bos taurus with 8 samples.

Results

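A set of 9 germline genes was followed in day 6 cattle embryos: TEX11, SYCP3 and STAG3 of meiotic chromosomes, DDX4, DAZL, MAEL and TDRD1 of germ cell RNA, and the cancer-testis genes PAGE4 and CT47B1. They were found as all EmbryoGENE array probes whose annotated symbol was one of these names, which gave 12 probes for 9 genes among 43794 probes, of which 21790 carried a symbol for 15208 genes. The genes had been selected on their Holstein over Jersey ratios on these same arrays, so the ratios below describe them and carry no p-value. Holstein embryos and Jersey embryos were recovered by uterine flushing on day 6 after insemination and compared directly on 8 two-colour arrays. Holstein RNA was in Cy5 on 4 arrays and Jersey RNA in Cy5 on the other 4. The labels call Holstein good at surviving freezing and Jersey poor. In donors of both breeds, follicles above 8 mm were first aspirated, then FSH (400 mg over the whole course) and a prostaglandin analogue (500 µg a dose) were given, and insemination used pooled semen. The number of embryos and donors behind a sample is not given in the sources used here. The labels do not say that the replicates came from separate animals, so the spread below is that between these samples and may be technical.

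Germ cells use a set of genes that most other cells keep silent. DDX4 and DAZL bind and regulate RNA in oocytes and spermatogenic cells, MAEL and TDRD1 serve the piRNA pathway that holds transposons down, and SYCP3, STAG3 and TEX11 build or use the meiotic chromosome axis. In mouse, DNA methylation and a variant Polycomb complex are known to silence many such genes after implantation, and methylation is low in the embryo before it. Cancer-testis genes are expressed in testis and again in some tumours, and many of them lie on the X chromosome.

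Of the 12 probes, 10 were kept, covering each of the 9 genes, because on at least 4 of 8 arrays they exceeded, in the same breed, a detection threshold set at 2 SD above the mean negative control spot. The remaining 2 were DAZL probes. That threshold lay between 162 and 337 units of raw intensity, and 41.7% to 80.8% of probes exceeded it in a breed on an array. Values are log2(Holstein / Jersey), averaged over the 2 arrays of a dye-swap pair, or levels, which are normalised log2 intensities of a breed averaged over the same 2 arrays. The labels do not name the pairs. They were taken from the array data, and pairs 1 and 2 lie on slide 1 and pairs 3 and 4 on slide 2. A level of one probe is not comparable with that of another.

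The clearest pattern was that TEX11, CT47B1 and PAGE4, all on the X chromosome, were lower in Holstein embryos on all 8 arrays and had the lowest mean ratios of the set. Mean log2(Holstein / Jersey) was -2.83 for TEX11, -2.05 for PAGE4 and -2.0 for CT47B1. The PAGE4 mean was -1.15 without pair 3, close to the autosomal genes SYCP3 and DDX4, and that of CT47B1 was -1.53 with no background correction. SYCP3 followed at -0.93 and -0.66 by its 2 probes, then DDX4 at -0.88 and MAEL at -0.49. The kept probes of DAZL, TDRD1 and STAG3 averaged 0.03 each, near the detection threshold in both breeds. Less RNA per cell and fewer cells that hold the RNA cannot be told apart in whole-embryo RNA.

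**Figure D1:**
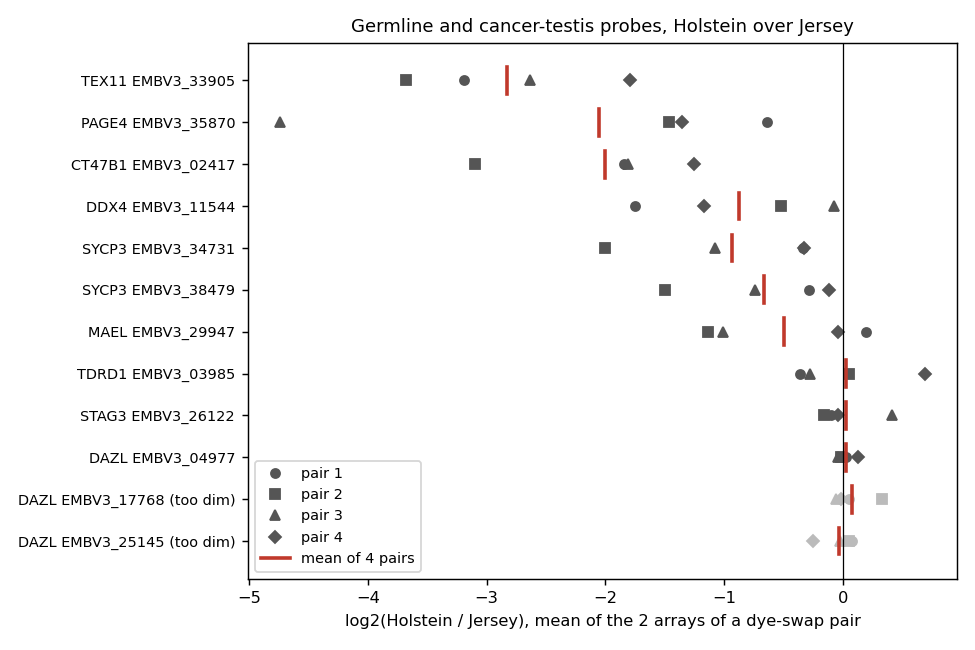
Each row is 1 probe and each symbol the log2(Holstein / Jersey) of 1 dye-swap pair, with the mean of the 4 pairs as a red bar and 0 as a black line. The 3 probes at the top average -2.83, -2.05 and -2.0, while TDRD1, STAG3 and the DAZL probes scatter around 0.

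Among the meiotic genes, TEX11, an X-linked recombination protein needed for male fertility in mouse and human, differed most. The level of probe EMBV3_33905 was 7.03, 7.10, 7.10 and 7.60 in Holstein over pairs 1 to 4, against 10.23, 10.78, 9.74 and 9.39 in Jersey. No Holstein pair came within the Jersey range. The ratio was -3.19, -3.68, -2.64 and -1.79 in the 4 pairs, with a mean of -2.83 ± 0.81 (SD, n = 4 pairs), and it was below 0 on 8 of 8 arrays. Raw intensity ran from 148 to 278 in Holstein with a median of 213, against 789 to 2025 in Jersey with a median of 1080. Holstein exceeded the detection threshold on 4 of 8 arrays, each time in the Cy3 channel, and Jersey did so on all 8. The Holstein side was thus close to background, and the size of the ratio is not a measured fold: the mean ran from -3.37 to -2.37 over the other background corrections, normalizations and value source. The 2 dye orientations gave means of -2.81 where Cy5 held Holstein and -2.84 where it held Jersey.

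SYCP3, the lateral element protein of the synaptonemal complex, was clearly present in both breeds. Its brighter probe EMBV3_34731 exceeded background on 8 of 8 arrays in Holstein and in Jersey. Levels were 11.90, 10.64, 11.09 and 11.84 in Holstein over pairs 1 to 4, against 12.24, 12.64, 12.16 and 12.17 in Jersey. All 4 Holstein values fell below all 4 Jersey values. Pairs 2 and 3 made most of the difference, since the ratio was -0.33, -2.0, -1.08 and -0.33, with a mean of -0.93 ± 0.79 (SD, n = 4 pairs) and of -0.58 without pair 2. It was below 0 on 8 of 8 arrays. The second probe, EMBV3_38479, was likewise lowest in pair 2 and then pair 3, at -0.28, -1.49, -0.74 and -0.12, with a mean of -0.66 ± 0.62 (SD, n = 4 pairs), and 7 of 8 arrays were below 0. Its levels overlapped between the breeds, from 8.00 to 9.63 in Holstein and from 9.14 to 9.78 in Jersey. The SYCP3 level of the brighter probe had an SD over pairs of 0.61 in Holstein, against 0.23 in Jersey.

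STAG3, the cohesin subunit specific to meiosis, was near background. Probe EMBV3_26122 passed the threshold on 5 of 8 arrays in Holstein and on 5 of 8 in Jersey, at raw medians of 218 and 231. Its ratio was -0.10, -0.15, 0.42 and -0.04, with a mean of 0.03 ± 0.26 (SD, n = 4 pairs). With both breeds this close to the threshold, a breed difference was not detectable at this signal.

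Of the genes that act on germ cell RNA, DDX4, the helicase known as Vasa, was lower in Holstein in all 4 pairs. Levels of probe EMBV3_11544 were 7.42, 7.29, 7.71 and 7.32 in Holstein, against 9.16, 7.81, 7.78 and 8.48 in Jersey. The ranges did not overlap, but pair 3 nearly closed the gap. The ratio was -1.75, -0.52, -0.07 and -1.16, with a mean of -0.88 ± 0.73 (SD, n = 4 pairs). Without pair 1 the mean was -0.59. Raw intensity in Holstein kept to between 222 and 258, at the threshold, and passed it on 6 of 8 arrays. In Jersey it ran from 228 to 711, above the threshold on 8 of 8. With Holstein this close to background, the size of the ratio is not a measured fold. Its mean ran from -1.10 to -0.67 over the other background corrections, normalizations and value source. The single array above 0, at 0.68, was that of pair 3 with Holstein in Cy5. The mean was -0.34 where Cy5 held Holstein and -1.41 where it held Jersey, so the size depended on the dye while the sign of the mean did not.

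MAEL, a piRNA pathway protein, was above background on 8 of 8 arrays in both breeds. Its level by probe EMBV3_29947 was 8.10, 7.37, 7.77 and 8.09 in Holstein, against 7.89, 8.50, 8.77 and 8.13 in Jersey. Holstein was lower in pairs 2 and 3 but not in pair 1, and the breeds nearly met in pair 4. The ratio was 0.20, -1.13, -1.0 and -0.04, with a mean of -0.49 ± 0.67 (SD, n = 4 pairs), which shrank to -0.28 without pair 2 and to -0.32 without pair 3. MAEL and SYCP3 thus departed from 0 in the same pairs, while DDX4 departed most in pairs 1 and 4.

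TDRD1, a Tudor-domain scaffold that binds PIWI proteins, gave -0.36, 0.05, -0.27 and 0.70 by probe EMBV3_03985, with a mean of 0.03 ± 0.48 (SD, n = 4 pairs). It passed the threshold on 5 of 8 arrays in Holstein and on 3 of 8 in Jersey, and 4 of those 5 and all 3 were in the Cy3 channel. DAZL, a translational regulator of germ cells, had 1 kept probe, EMBV3_04977, with 0.03, -0.01, -0.04 and 0.13 in the pairs. It passed on 4 of 8 arrays in Holstein and 3 of 8 in Jersey, again only in Cy3. The DAZL probes that were too dim averaged 0.08 and -0.03, and EMBV3_25145 passed on 0 of 8 arrays in either breed. Neither DAZL nor TDRD1 RNA was thus clearly above background in either breed, and a breed difference was not detectable at this signal.

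The cancer-testis gene PAGE4, a small disordered protein known from human prostate and placenta, stood apart for its spread. Probe EMBV3_35870 had levels of 7.79, 7.93, 8.97 and 8.35 in Holstein, against 8.42, 9.39, 13.71 and 9.71 in Jersey. Raw intensity ran from 225 to 639 in Holstein over the 8 arrays. In Jersey it was 13903 and 13707 on the 2 arrays of pair 3, far above every other value, and 350 to 1107 on the other 6. The ratio was -0.64, -1.47, -4.74 and -1.36, with a mean of -2.05 ± 1.83 (SD, n = 4 pairs), and -1.15 without pair 3. Every array was below 0 and above background in both breeds. Only 27 of 32129 kept probes (0.084%) had an SD over pairs at least as large.

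CT47B1, of a cancer-testis antigen family whose function is little known, was more even. Levels by probe EMBV3_02417 were 6.75, 6.81, 7.03 and 7.10 in Holstein, against 8.60, 9.91, 8.84 and 8.35 in Jersey, and the breeds did not overlap. The ratio was -1.84, -3.09, -1.81 and -1.26, with a mean of -2.0 ± 0.78 (SD, n = 4 pairs), below 0 on 8 of 8 arrays. The probe was kept through Jersey alone, since Holstein passed the threshold on 1 of 8 arrays, at raw intensities of 143 to 236, and Jersey on 8 of 8, at 407 to 1076. CT47B1 RNA therefore lay at background in Holstein on 7 arrays and was measured in Jersey on all 8. The ratio is not a measured fold, since its size is set by a Holstein side near background: the mean ran from -2.66 to -1.53 over the other background corrections, normalizations and value source. Means by dye were -1.65 where Cy5 held Holstein and -2.36 where it held Jersey.

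**Figure D2:**
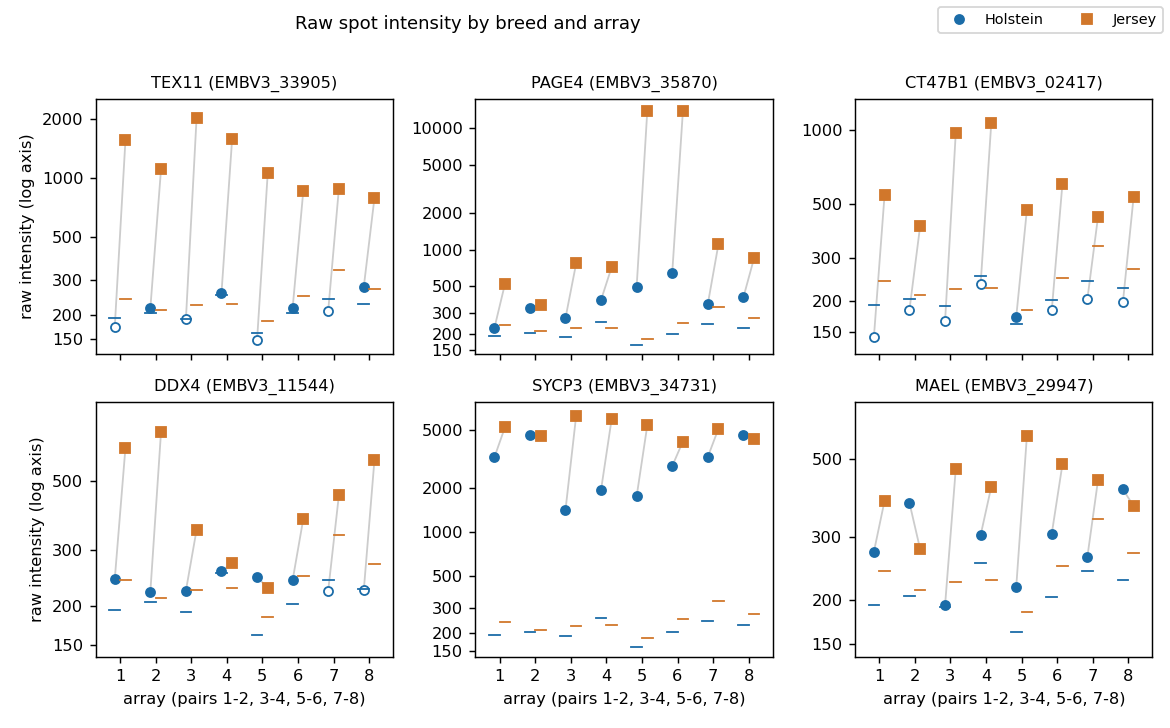
Raw intensity (log axis, with its own range in each panel) of 6 genes on arrays 1 to 8, Holstein as blue circles left of Jersey as orange squares, joined by a grey line; short bars mark each channel's detection threshold and open symbols lie at or under it. Holstein CT47B1 was above threshold on 1 array and Holstein TEX11 on 4, SYCP3 was well above it in both breeds, and Jersey PAGE4 on arrays 5 and 6 stood at 13903 and 13707.

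Over all kept probes the fit of the 4 pair means with limma, adjusted by Benjamini-Hochberg at 0.05, called 0 of 32129 (0%), with a smallest adjusted p of 0.0678, and 2 without pair 4. At an unadjusted p under 0.05 it called 4483 (14%), which is 6.61% higher and 7.34% lower in Holstein. A fit of the 8 arrays with the pair as a random block called 1209 of 32033 (3.77%), of which 685 were lower in Holstein (2.14%). As a description, 7 of the 10 germline probes averaged below 0, against 49.3% of all kept probes. Of the same 10, 3 averaged -1 or less, against 196 of all kept probes (0.61%), and the same 3 averaged -2 or less, against 12 (0.0373%). From the lowest ratio up, TEX11 ranked 4, PAGE4 10 and CT47B1 11 of 32129, while SYCP3 ranked 246 and 589, DDX4 301 and MAEL 1082. Of the 10 probes, 4 were below 0 on all 8 arrays (2.71% of all kept probes) and 4 had breed levels that did not overlap over pairs, lower in Holstein (2.88%), with 0 not overlapping and higher (2.63%). These shares were known when the genes were picked, and nothing is read from them.

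The contrast between the slides did not enter the rule that gave the genes and could be tested. TEX11 averaged -3.44 on slide 1 and -2.21 on slide 2, a difference of -1.22 ± 0.36 (SE) with an unadjusted p of 0.0250 and an adjusted p of 1.00 by limma over 32033 probes. It was the only 1 of the 10 probes under 0.05, against 1305 of all probes (4.07%), and 0 of 32033 (0%) passed after adjustment. The same fit with the pair as a random block called 12 probes. PAGE4 averaged -1.05 on slide 1 and -3.05 on slide 2, a difference of 2.00 ± 1.20 (SE), with -4.74 in pair 3 and -1.36 in pair 4 of slide 2. A difference of the breed ratio between slides was thus not shown for any of the 9 genes.

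The chromosomes of the genes were then compared with their surroundings, which was decided on after seeing the values. By the RefSeq annotation of ARS-UCD2.0, TEX11, PAGE4 and CT47B1 are X-linked, and DDX4 lies on chromosome 20, SYCP3 on 5, MAEL on 3, DAZL on 1, TDRD1 on 26 and STAG3 on 25. Of 546 kept X-linked probes without XIST, 403 (73.8%) averaged below 0, against 46.2% of 15994 autosomal probes. The X-linked median was -0.16, -0.15, -0.19 and -0.06 in pairs 1 to 4. XIST, the RNA that coats the inactive X chromosome, stood at -3.22, -3.43, -3.52 and -1.56 in the same pairs. TEX11, CT47B1, XIST and the X-linked median all came closest to 0 in pair 4, and PAGE4 did so in pair 1. This was not particular to the X chromosome. The autosomal SYCP3 (-0.33 and -0.12 by its 2 probes) and MAEL (-0.04) were also closest to 0 in pair 4, and DDX4 (-0.07) in pair 3. On array 7, of pair 4, 41.7% of probes exceeded the threshold in Holstein and 42.8% in Jersey, the lowest share of each breed. The part of the X chromosome as a whole in the germline values was not tested.

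The 3 X-linked germline genes were the lowest of those 546 probes and the only ones at -2 or less (0.549%), which restates how they were selected, so nothing is read from it. The next was L1CAM at -1.29, followed by ELF4 at -1.26 and PLP2 at -1.24, and 13 X-linked probes in all (2.38%) averaged -1 or less. The 2 nearest measured genes on either side of each germline gene were read as well. Beside TEX11 lay SNX12 at -0.77 ± 0.21, SLC7A3 at 0.02 ± 0.07, GDPD2 at -1.13 ± 0.37 and KIF4A at -0.56 ± 0.11 (moderated SE, n = 4 pairs). Beside CT47B1 lay C1GALT1C1 at -0.42, a locus without a name at 0.04, GRIA3 at -0.02 and THOC2 at -0.64. Beside PAGE4 lay CCDC22 at -0.44, PPP1R3F at -0.02, USP27X at 0.25 and CLCN5 at -0.38. Around DDX4 the neighbours IL6ST, IL31RA, PLPP1 and MTREX ran from -0.01 to 0.19, and around SYCP3 they ran from -0.48 for DRAM1 to 0.66 for CHPT1. Around MAEL they ran from 0.08 for TADA1 to 0.39 for STYXL2, around DAZL from -0.57 for PLCL2 to 0.18 for OXNAD1, around TDRD1 from -0.13 for VWA2 to 0.23 for AFAP1L2, and around STAG3 from -0.09 for PILRA to 0.14 for PVRIG. DAZL, TDRD1 and STAG3 had neighbours with ratios further from 0 than their own. The probes of these genes lay near the detection threshold, where a breed difference was not detectable, so nothing is read from this. No neighbour passed the adjusted test. Of Y-linked genes, also looked up afterwards, SRY averaged 0.04, ZFY -0.13, EIF1AY 0.31 and DDX3Y 0.23, each above threshold on 3 to 7 of 8 arrays in a breed. With signal this near the threshold, nothing is read from these 4. The other kept probes of genes annotated to Y ran from -0.16 for CRLF2 to 0.15 for LOC100298830. Both exceeded the threshold on 8 of 8 arrays in Holstein, and on 8 and 7 in Jersey.

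**Figure D3:**
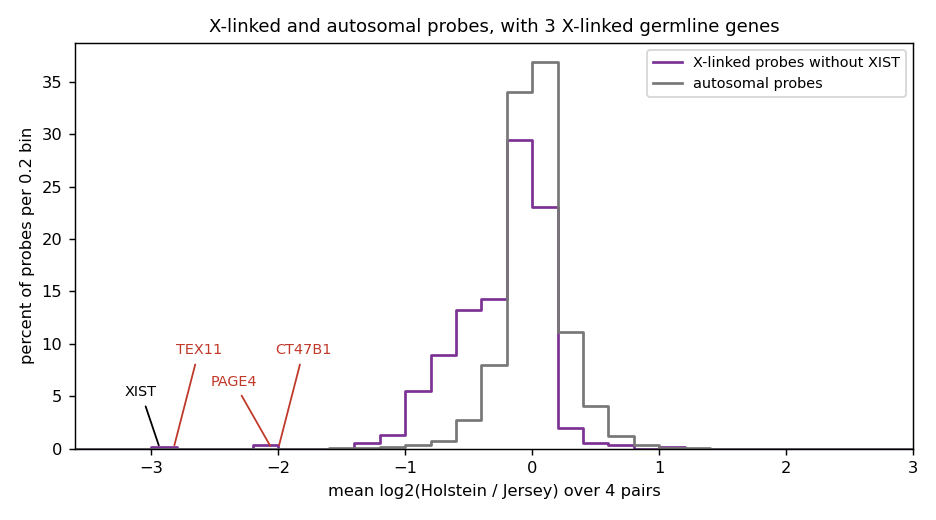
Percent of probes per 0.2-wide bin of mean log2(Holstein / Jersey) for 546 X-linked probes without XIST (purple) and 15994 autosomal probes (grey), with arrows to TEX11, PAGE4, CT47B1 and XIST. More of the X-linked than of the autosomal probes lie below 0 (73.8% against 46.2%), and the 3 germline genes, counted among the X-linked probes, lie at -2.83, -2.05 and -2.0.

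Other genes of the same pathways lay around 0. In 7 lists of 147 genes, 81 had a kept probe, 35 higher and 46 lower in Holstein, with a median of -0.05 against 0.00 over all kept probes. None passed the adjusted test, the smallest adjusted p being 0.137. At an unadjusted p under 0.05, 14 of 81 (17.3%) passed, against 14% of all kept probes, 9 of them higher and 5 lower in Holstein, and 9 passed without pair 3. Of the 7 X-linked genes among the 81, 3 were under 0.05, all lower in Holstein, and of all 546 X-linked probes 186 were (34.1%). In the random-block fit 2 of the 81 passed, KDM5C and KIT. In the sentences on lists that follow, each error is a moderated SE over 4 pairs and passing means an unadjusted p under 0.05.

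The piRNA pathway had 12 of 24 genes measured, 7 higher and 5 lower in Holstein, with a median of 0.07, and 1 passed in each direction. TDRD9, a helicase of the pathway, was -0.36 ± 0.11, and ASZ1, a germ granule protein, was 0.49 ± 0.17. MYBL1, which drives piRNA precursor transcription in mouse testis, was 0.62 ± 0.31 but 0.22 without pair 2, and did not pass. PIWIL1 reached the threshold on 4 of 8 arrays in Holstein and 3 of 8 in Jersey, and PIWIL3 and PIWIL4 were too dim to keep. The PIWI genes with a probe were thus at or near background.

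For synaptonemal complex and recombination genes, 14 of 29 were measured, 6 higher and 8 lower in Holstein, with a median of -0.04. Passing were 3, all higher in Holstein: TRIP13 at 0.27 ± 0.07, an ATPase that remodels HORMA-domain proteins, MND1 at 0.29 ± 0.08, a partner of strand exchange, and SPATA22 at 0.37 ± 0.13, which binds single-stranded DNA in meiosis. Their direction was opposite to that of SYCP3 and TEX11, which had been selected on their ratios, and none of the 3 passed the adjusted test. TRIP13 was above threshold on 7 of 8 arrays in Holstein and 4 of 8 in Jersey, and SPATA22 was -0.05 in pair 1. SYCP2, the axial partner of SYCP3, was too dim to keep, as were SPO11, which makes meiotic DNA breaks, HORMAD2 and MSH4. The central element genes SYCE2 and TEX12 were above background on all 8 arrays in both breeds, and did not pass. SYCE2 was -0.31 (-0.15 without pair 4, and -0.05 and -0.04 by its other probes) and TEX12 -0.26 (-0.10 without pair 2). Of 3 meiotic cohesin genes only REC8 was measured, at -0.06 ± 0.16, and SMC1B and RAD21L1 were too dim.

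All 5 mitotic cohesin genes were measured. RAD21, the cleavable ring subunit, was higher in Holstein at 0.44 ± 0.11, and the X-linked STAG2 was lower at -0.46 ± 0.15, or -0.31 without pair 2. STAG1 was -0.25 ± 0.14 by its brighter probe and 0.04 by the other. STAG2 and STAG1 are the mitotic counterparts of STAG3, and both were above background on 8 of 8 arrays in each breed.

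Genes of germ cell specification and RNA binding numbered 13 of 22 measured, 5 higher and 8 lower in Holstein, with a median of -0.09, and 1 passed. KIT, the receptor that primordial germ cells need, was higher in Holstein on 8 of 8 arrays at 0.58 ± 0.16, with an adjusted p of 0.225 on pair means and 0.0477 in the random-block fit of limma. Its other probe gave 0.41. DPPA3, a maternal protein that guards methylation in mouse, was -0.26 ± 0.23 (0.01 without pair 2) and its second probe -0.21, and NANOS3, a translational repressor of germ cells, was -0.17 ± 0.07. STRA8, which marks entry into meiosis, was too dim to keep.

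Of 41 further cancer-testis genes 17 had a probe and 14 were measured, 5 higher and 9 lower in Holstein, with a median of -0.04. MAGEB16, X-linked, passed at -0.39 ± 0.11, although 3 of 8 arrays were above 0. BRDT, a bromodomain protein of spermatids, was higher in Holstein at 0.20 ± 0.08, above threshold on 4 of 8 arrays there and on 3 of 8 in Jersey. DKKL1, a protein of the sperm acrosome, was -0.15 ± 0.07 and did not pass. The other X-linked genes of the list, SSX5, NXF3 and TEX13A, named after their values were seen, lay between -0.12 and -0.03.

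**Figure D4:**
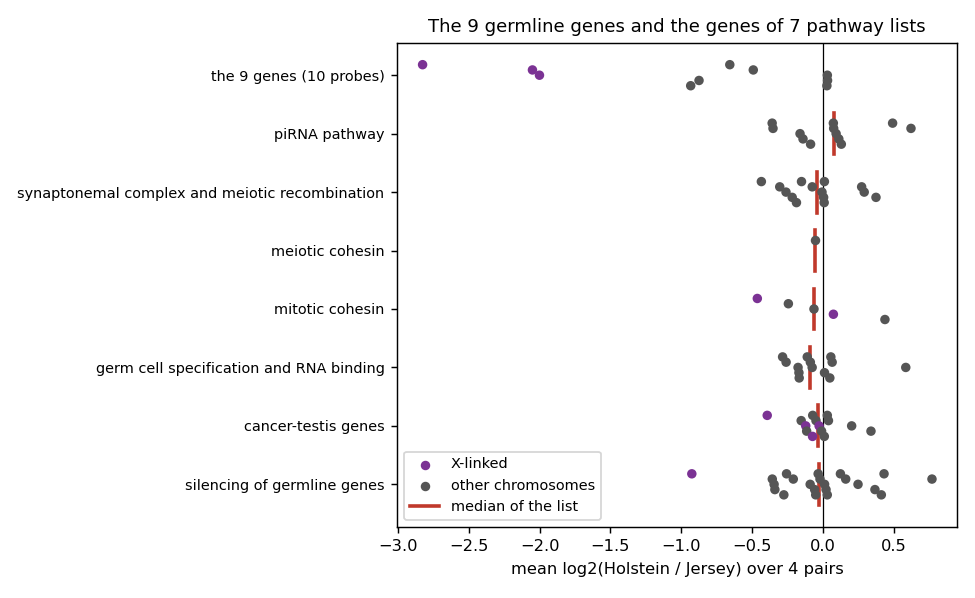
Mean log2(Holstein / Jersey) over 4 pairs, each dot a probe in the top row and a gene by its brightest kept probe in the list rows, with X-linked genes in purple, other chromosomes in grey and the list median as a red bar. The list medians lie between -0.09 and 0.07, and KDM5C, at -0.93, is the lowest listed gene.

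Genes that silence germline genes were nearly all measured, 22 of 23, with 10 higher and 12 lower in Holstein, a median of -0.03, and 2 passing in each direction. KDM5C, an X-linked histone demethylase that represses germline genes in mouse, was below 0 on 8 of 8 arrays. Its ratio was -1.09, -0.75, -1.39 and -0.48 in the pairs, with a mean of -0.93 ± 0.16, an adjusted p of 0.137 on pair means and of 0.00943 in the random-block fit of limma. RING1 and RNF2, the ubiquitin ligases of Polycomb complex 1, were higher in Holstein at 0.41 ± 0.10 and 0.77 ± 0.24, with RNF2 at 0.50 without pair 2. TRIM28, a corepressor named here because it was the remaining gene to pass, was -0.28 ± 0.10. Of the DNA methyltransferases, looked up after the values were seen, DNMT3B was -0.36 (-0.03 without pair 4), DNMT1 -0.35 (-0.15 without pair 2) and DNMT3A 0.16 (-0.46 to 0.17 by its other probes), and none passed.

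Of all 32129 kept probes, 14019 exceeded background on all 8 arrays in both breeds. Across the 5 germline lists 15 of 54 measured genes did so, a smaller share, in a count made after the values were seen. They were ASZ1, GTSF1 and FKBP6 of the piRNA list, SYCE2, TEX12, PSMC3IP, MND1, SPATA22 and CCNB1IP1 of the meiotic list, PRDM14, TFAP2C, DPPA3 and KIT of the specification list, and MAGEB16 and ZNF165 of the cancer-testis list. SYCP3, MAEL and PAGE4 met the same criterion. DDX4, TEX11 and CT47B1 met it in Jersey only.

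Markers of other cells that an embryo sample could hold were read in the same fit. Of 13 sperm markers 6 were kept, 0 of them above background on all 8 arrays in either breed, with a median of 0.10, and PRM1 and PRM2, the protamines, were too dim. TNP1 was 0.43 ± 0.21, ODF2 0.49 ± 0.15 and HSPA1L 0.17 ± 0.07. Levels of the kept markers, taken off the log2 scale and summed, were 939 to 1152 in Holstein and 879 to 952 in Jersey over the pairs. All sums here and below were made in this way, so the brightest probes weigh most in them. Sums of markers this near background cannot show a breed difference in sperm RNA, and nothing is read from them. Of 12 oocyte markers 9 were kept, with a median of 0.00. NLRP5 was -0.31 ± 0.07, but it was above threshold on 3 of 8 arrays in Holstein (7 of 8 in Jersey) and below 0 on 4 arrays. OOEP was 0.06 ± 0.07 and H1-8 -0.07 ± 0.09, and GDF9 and ZAR1 were too dim. The sums were 1513 to 1710 in Holstein and 1604 to 1709 in Jersey. Of 10 cumulus and granulosa markers 7 were kept, 3 higher and 4 lower in Holstein with a median of -0.01. CYP19A1 was 0.54 ± 0.12 (0.07 to 0.48 by its other probes), INHBA 0.79 ± 0.24 and TNFAIP6 -0.17 ± 0.10. The sums were 1392 to 1522 in Holstein and 1149 to 1335 in Jersey. Of the kept oocyte and cumulus markers, 0 were above background on all 8 arrays in both breeds, and nothing is read from their sums.

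Of 7 erythrocyte markers 6 had a probe and all 6 were kept, with a median of -0.61 and HBA at -0.60 ± 0.19, HBB at -1.0 ± 0.45 and HBG at -1.94 ± 0.91, and HBG ran at -4.22, -3.84, 0.13 and 0.16 over the pairs. The other 3, named after their values were seen, were ALAS2 at -0.62, lower on slide 2 with -0.33, 0.44, -1.66 and -0.95 over the pairs, AHSP at 0.18 and SLC4A1 at 0.04. Between slides, 4 of the 6 had an unadjusted p under 0.05 by limma, against 4.07% of all probes. Of these HBG, HBB and HBA were lower on slide 1 and ALAS2 on slide 2. None of the 6 differed between slides after adjustment, the lowest adjusted p by limma being 0.228 for HBG. Their sums were 1217 to 1507 in Holstein and 1809 to 5594 in Jersey. The mean TEX11 ratio was also lower on slide 1, a difference that did not pass adjustment, and the part of blood RNA in it was not tested. Of the inner cell mass markers 6 were kept, with a median of -0.20, KLF17 at -0.30 ± 0.08, SALL4 at -0.30 ± 0.08 and POU5F1 at -0.23 ± 0.18, which ran at -0.64, 0.23, -0.60 and 0.09 over the pairs. NANOG at 0.40, SOX2 at 0.07 and PRDM14 at -0.18 were named after their values were seen, and the list had sums of 5758 to 7791 in Holstein and 5694 to 8077 in Jersey. Of 8 trophectoderm markers all were kept, with a median of -0.05, KRT18 at -0.44 ± 0.18, GATA3 at -0.19 ± 0.10 and CDX2 at 0.21 ± 0.14, and sums of 57434 to 84504 in Holstein and 69185 to 84107 in Jersey. Above background on 8 of 8 arrays in both breeds were 3 of 6 inner cell mass and 6 of 8 trophectoderm markers. POU5F1 and KRT18 were among them, and SOX2, SALL4, KLF17, CDX2 and ELF3 were not. The share of each lineage in the samples was not tested.

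The named genes whose ratios followed DDX4 and SYCP3 most closely were found by Pearson correlation over the 8 arrays after the dye means were equalised. These arrays form only 4 pairs and the genes were the highest of 16696 candidate probes for DDX4 and 16695 for SYCP3, so the values describe likeness alone. For DDX4 they were YWHAE at 0.987, ATP6V1H at 0.974, CALML5 at 0.966, CCDC124 at 0.963 and PCGF6 at 0.962. For SYCP3 they were IRAK4 at 0.994, FLT3 at 0.994, EPB41L4A at 0.993, NDUFAF1 at 0.992 and MID1 at 0.989. Their own mean ratios ran from -0.12 to 0.29 for the 5 genes beside DDX4 and from -0.46 to 0.38 for the 5 beside SYCP3. Correlation takes out the mean ratio of each gene, so it cannot show whether breed differences are alike.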

How the data were processed

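Total RNA of day 6 embryos was amplified in 2 rounds and labelled with Cy3 or Cy5, per the labels' protocols. The deposited scanner files hold raw foreground and background intensity for each of 45220 spots per array, and a deposited column of the kind other marks ignored spots, of which there were 131. The authors' deposited value table holds log2 ratios of Jersey over Holstein, judged against the scanner files, with medians near 0 and unstated steps. Aligner, build and scanner software are not given in the sources used here. No column was left unassigned (0 columns).

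From these, R 4.3.3 with limma 3.58.1 computed log2(Holstein / Jersey): normexp on mean foreground and median background (offset 50) and loess within arrays, with control and ignored spots at weight 0. Levels of a breed additionally used Aquantile. A probe was kept when above the mean plus 2 SD of 153 negative control spots in a breed on at least 4 of 8 arrays, which left out 11665 of 43794 probes. Probes with a missing pair value, 96 in all, were fitted on the pairs they had. Dye-swap pairs are not labelled: of 24 matchings, the one with the highest residual correlations was taken (0.458 to 0.711 within pairs, -0.356 to -0.019 between others). The 4 pair means were fitted with lmFit and eBayes and adjusted over all kept probes. Because numbers given to arrays in the labels pair nothing by themselves, the pairing is a hint from the data. The number of arrays limits the precision.

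The genes, lists and tests were chosen with earlier results of these data known. Named were all 9 genes, the 3 smallest p of each list, the 5 nearest patterns of DDX4 and SYCP3, and XIST. Neighbours, X-linked and Y-linked comparisons, genes above background on all arrays and the count without X-linked genes were chosen after values were seen. Gene names come from the deposited platform annotation, which can be old, updated through RefSeq of ARS-UCD2.0. A gene is represented by its brightest kept probe. The fits of pair means and of the slide term were tried on simulated independent log ratios. Normalization, the dim filter, the pairing and the random-block fit were not part of that trial. Alternatives covered pairing, background, normalization, the dim filter, value source, slide, probe per gene and each pair left out.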

Additional observations from a re-analysis of the deposited data

Results flagged for a closer look

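Of 67 groups of 4 pair values that were checked for a lone value, 5 had one, where chance gives about 1 in 20 groups. The Jersey level of SYCP3 (probe EMBV3_34731) was 12.6 in pair 2, against 12.2 in the other pairs. The Holstein level of TEX11 was 7.6 in pair 4, against 7.03 to 7.1 in the others. The ratio of MYBL1 was 1.82 in pair 2, against 0.199 to 0.26. SALL4 was -0.0613 in pair 4, against -0.401 to -0.35. KRT18 was 0.229 in pair 3, against -0.74 to -0.58. The ratio of -4.74 for PAGE4 in pair 3 did not meet the same criterion.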

How the results depend on the processing

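Of the germline probes, no other background correction, median centring or value source moved a mean by more than 1 SD of its pairs. Aquantile after loess, the replicate block settings and the filter on probes above threshold throughout leave a mean unchanged by construction. Leaving out a pair cannot move a mean that far, so these settings do not test it. The sign changed only for the DAZL, TDRD1 and STAG3 probes, which lie near 0. Leaving out a pair could not have turned the sign of the other germline means. Over the processing alternatives TEX11 ran from -3.37 to -2.37, CT47B1 from -2.66 to -1.53, PAGE4 from -2.22 to -1.87, DDX4 from -1.10 to -0.67, SYCP3 from -0.94 to -0.80 and MAEL from -0.62 to -0.39. Leaving out a pair gave -2.52 to -1.15 for PAGE4, with -1.15 without pair 3. The count of all probes past the adjusted threshold was 0, but 1209 with the pair as a random replicate block (685 lower in Holstein), 2054 with no replicate block, 48 among the 14019 probes that exceeded the threshold in Cy3 and Cy5 throughout (43 lower in Holstein), and 0 to 2 with a pair left out (2 without pair 4). The cause was not tested. Listed genes with an unadjusted p under 0.05 numbered 14 of 81, or 9 to 14 with a pair left out (9 without pair 3). Under the other alternatives on the same 81 genes they numbered 12 to 21, 18 with the random block. On other sets of genes they were 10 of 36 above background throughout, 16 of 106 with no dim filter and 11 of 74 without X-linked genes. Probes that differed between slides numbered 0, with 12 under the random replicate block and 24 under no replicate block. Signal over background limits the size of the TEX11, CT47B1 and DDX4 ratios, whose Holstein side was near the threshold.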
